A study of Mus musculus with 11 samples.

Results

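The cytosolic sensors of foreign or misplaced nucleic acid, their adaptors and the antiviral helicases were described with 10 genes, taken by symbol from the 23284 genes of the count files. They were the RIG-I-like receptors Dhx58, Ddx58 and Ifih1, the Z-form nucleic acid sensor Zbp1, the adaptors Mavs and Tmem173, the ubiquitin ligase Trim25, the kinase Eif2ak2 and the helicases Mov10 and Znfx1. All 10 were in every file, and all 10 were among the 15237 genes that passed the filter on low counts. They were chosen by the difference of their counts between MYCN ON and MYCN OFF tumors, which was already known, so their levels in the 2 groups, their fold changes and the number called are given as a description, without a test.

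Gene expression was measured by sequencing poly(A) RNA from 11 mouse tumors labelled as small cell lung cancer, a neuroendocrine carcinoma of the lung. Every tumor, in both groups, had the genotype Rb;p53 with TRE-MYCN, a MYCN transgene that responds to doxycycline, and LSL-RTTA, a doxycycline-dependent transactivator behind a stop cassette that Cre removes. In 7 tumors doxycycline was still given (MYCN ON), and 4 tumors were taken 7 days after the drug was stopped (MYCN OFF). The stated aim was to find genes regulated by MYCN. The labels name no Cre driver, no cell of origin and no age. They do not tie the tumors to individual mice, so the spread between tumors may be partly technical. Tumors of the same mouse would not be independent, while the tests treat the 11 tumors as independent. Standard errors and adjusted p-values may therefore be too small. Doxycycline and MYCN changed together and cannot be told apart in any comparison.

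Cells detect viral and misplaced RNA in the cytosol mainly with RIG-I-like receptors, which are RNA helicases. Ddx58 (RIG-I) and Ifih1 (MDA5) carry signalling domains that engage Mavs on mitochondria, while Dhx58 (LGP2) lacks these domains and tunes the other receptors. DNA is sensed through cGAS and its adaptor Tmem173 (STING), and both routes lead to interferon, which in turn raises transcription of many of the sensors through the interferon-stimulated response element (ISRE). Eif2ak2 (PKR) stops translation when it binds double-stranded RNA, Zbp1 can start necroptosis, and Mov10 and Znfx1 are helicases that restrict viruses and retroelements.

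The promoter windows of the members were read first, because interferon-responsive genes often carry an ISRE near their start. RefSeq windows of 300 bases (250 before and 50 after the annotated start, build GRCm38.p6) were held for 7 of the 10 members, Mov10 and Znfx1 having more than one. The search, on both strands, covered 3 motifs: the ISRE core (GAAA, any 2 bases, GAAA), the interferon-gamma-activated site TTCNNNGAA and the E-box CACGTG, to which MYC-family proteins bind. They do not overlap each other in the sites below. The 30-base sites show each match in capitals, 5′ to 3′ on the gene's strand, and are the ones in which a member differs from the others.

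Ddx58 ISRE: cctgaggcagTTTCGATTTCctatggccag
Ifih1 ISRE: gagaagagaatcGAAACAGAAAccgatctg
Eif2ak2 ISRE: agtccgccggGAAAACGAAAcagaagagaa
Eif2ak2 gamma site: ctgcagagctTTCCCAGAAtggaagccagg
Trim25 E-box: cccccagggaccCACGTGacttcctgaagc

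The ISRE core stood in the windows of 3 of the 7 members, Ddx58, Ifih1 and Eif2ak2. It stood in those of 3.99% of the 27025 genes searched, or 3.44% of the 32851 windows searched. In Ddx58 it ran on the opposite strand and began at base 3 of the transcript (site chr4:40239804-40239833, minus strand). In Ifih1 it began at base 33 (chr2:62646206-62646235, minus strand), and in Eif2ak2 at base 19 (chr17:78882535-78882564, minus strand). Eif2ak2 also held the gamma-activated site before its start (chr17:78882731-78882760, minus strand), a motif found in 9.55% of the genes searched. The E-box was found in the window of Trim25 alone among the members, before the start (chr11:88999343-88999372, plus strand), against 8.09% of the genes searched. Mavs, Mov10 and Znfx1 held none of the 3 motifs in their windows. A match is a description of these letters and was not measured as a bound site.

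The depth of a MYCN ON tumor, as the total of gene counts, was between 10324089 and 13123838, and that of a MYCN OFF tumor between 8951733 and 12190957. Mycn, the check of the labels, lay between 36.5 and 171 CPM (counts scaled to library size with TMM factors) in MYCN ON and between 5.63 and 15.7 in MYCN OFF, with no overlap. The labels do not give the species of the transgene, so whether reads counted for mouse Mycn come from it, from the endogenous gene or from both is not known. The neuroendocrine markers were present in all tumors (summed level of the list 2161 to 3692 CPM in MYCN ON and 1543 to 7766 in MYCN OFF), although Neurod1 was at 0 in a MYCN ON tumor. Other tissue differed between tumors. Sftpc, the surfactant gene of lung alveolar cells, was at 100 CPM or more in MYCN ON tumors 3 and 5 and in MYCN OFF tumors 1, 3 and 4, and was between 0.443 and 5.86 CPM in the other 6. The 10 lung markers summed to 6.82 to 3320 CPM in MYCN ON and to 34.7 to 32160 in MYCN OFF, and 2 of them fell. Of 6 endothelial markers 3 fell, and of 7 stromal markers 0 passed the test. The summed level of 15 immune markers was 113 to 309 CPM in MYCN ON and 247 to 989 in MYCN OFF. Of the 14 tested, 7 fell in MYCN ON and 0 rose, beside 13.4% and 16% of all genes tested. Cd3e, Nkg7 and Ms4a1 were at 0 in some MYCN ON tumors. MYCN OFF tumor 2, the only lung-poor tumor of its group, carried the highest skeletal muscle markers (462 CPM summed, against at most 109 in MYCN ON). In such bulk samples, fewer cells of a type and less RNA per cell cannot be told apart.

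All 10 members had a lower fitted level in MYCN ON than in MYCN OFF, and 7 of them were at least 2-fold lower. By the size of the difference the members formed 3 sets. The receptors Dhx58, Ddx58 and Ifih1 and the sensor Zbp1 were 5.69-fold to 9.64-fold lower, the helicases Mov10 and Znfx1 and the adaptor Tmem173 2.46-fold to 2.84-fold lower, and Mavs, Eif2ak2 and Trim25 at most 1.47-fold lower. The median log2 fold change of the 10 was -1.44, beside 0.0023 over all genes tested, of which 49.9% had a negative value and 20.1% were at least 2-fold lower. The edgeR quasi-likelihood fit called 6 members lower and 0 higher at an adjusted p below 0.05, where 13.4% of all genes tested were called lower. In 4 members (Dhx58, Ifih1, Mov10 and Znfx1) every MYCN ON tumor lay below every MYCN OFF tumor, which held for 5.41% of all genes tested. Nothing is read from these counts, since the same contrast chose the members.

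**Figure D1:**
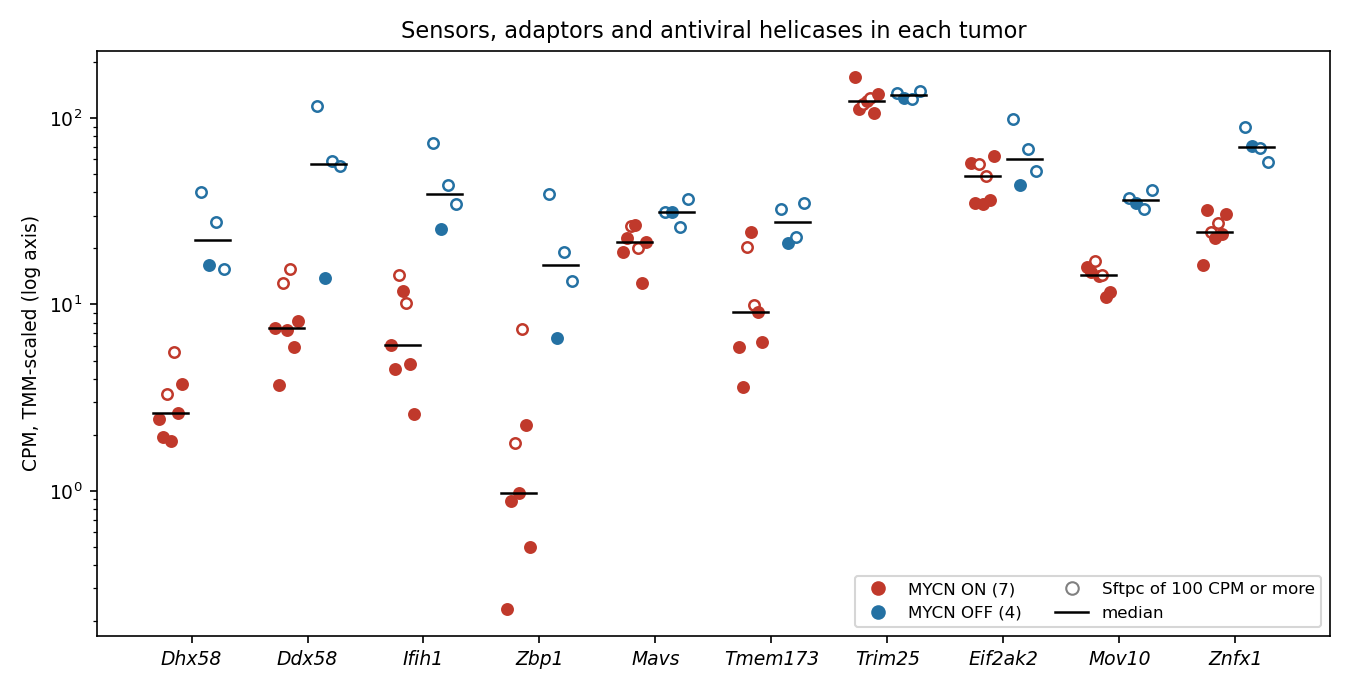
Level of each member in each tumor, in TMM-scaled CPM on a log axis, for 7 MYCN ON (red) and 4 MYCN OFF (blue) tumors, with the group median as a bar and open symbols for tumors with Sftpc of 100 CPM or more. Dhx58, Ifih1, Mov10 and Znfx1 show no overlap between the groups, while Trim25 lies between 107 and 165 CPM in all tumors.

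Among the receptors, Dhx58, the regulator without signalling domains, was between 1.85 and 5.54 CPM in MYCN ON, with a median of 2.63. In MYCN OFF it was 40.1, 16.35, 27.8 and 15.5 CPM in tumors 1 to 4. The lowest MYCN OFF tumor was thus above the highest MYCN ON tumor, number 5. Its fitted difference was -3.02 on the log2 scale (SE 0.38), an 8.09-fold lower level. An antisense transcript, Dhx58os, shares 141 exon bases with Dhx58 in GENCODE M21 (build GRCm38), and reads of the pair cannot be separated without a known strand setting.

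Ddx58, the RIG-I receptor for RNA with a 5′ triphosphate, ranged from 3.72 to 15.5 CPM in MYCN ON (median 7.43). In MYCN OFF it was 116, 13.9, 58.9 and 55.2 CPM. The groups overlapped through MYCN OFF tumor 2, which lay below MYCN ON tumor 5. The other MYCN OFF tumors were above all MYCN ON tumors, and tumor 1 stood highest. On the log2 scale the difference was -2.80 (SE 0.48), and it was -2.29 without MYCN OFF tumor 1. Ddx58 had the widest spread of the members within MYCN OFF (SD of log2 CPM 1.28, against 0.67 in MYCN ON).

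Ifih1, the receptor of long double-stranded RNA, was at 2.59 to 14.5 CPM in MYCN ON (median 6.04). It was at 73.3, 25.5, 43.7 and 34.7 CPM in MYCN OFF. The groups did not overlap, although MYCN OFF tumor 2 was again the lowest of its group and tumor 1 the highest. This came to a log2 fold change of -2.51 (SE 0.45), a 5.69-fold lower level. The tumors of MYCN ON varied in Ifih1 more than in either of the other receptors (SD of log2 CPM 0.86, against 0.53 for Dhx58).

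Zbp1, which binds Z-form RNA and DNA and can recruit the necroptosis kinase Ripk3, had the largest spread within MYCN ON (SD of log2 CPM 1.38) and a difference whose size depended on the setting. It ranged from 0.232 to 7.42 CPM in MYCN ON (median 0.970), which is 2 to 95 reads, and only 4 of these 7 tumors reached the level of the filter. In MYCN OFF it was 39.1, 6.64, 19.2 and 13.4 CPM. MYCN ON tumor 5 was above MYCN OFF tumor 2, and the other tumors separated by group. Its log2 fold change was -3.27 (SE 0.79), -2.69 without MYCN OFF tumor 1 and -2.13 with the lung score, and the highest MYCN ON tumor was 31.9 times the lowest. Tumor 5 was also the highest MYCN ON tumor for Dhx58 and Ddx58. It had the lowest Mycn of its group (36.5 CPM), the highest Ptprc, the pan-leukocyte marker (35.0 CPM), and the highest Sftpc (1313 CPM). The part of these in its sensor levels was not tested.

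The adaptors differed less. Mavs, the mitochondrial adaptor shared by Ddx58 and Ifih1, was at 13.0 to 26.7 CPM in MYCN ON (median 21.75) and at 31.2, 31.5, 26.1 and 37.0 CPM in MYCN OFF. Its log2 fold change was -0.56 (SE 0.21), and MYCN OFF tumor 3 fell within the range of MYCN ON. Tmem173, the adaptor of the DNA route, ranged from 3.63 to 24.5 CPM in MYCN ON (median 9.15) and was 32.6, 21.5, 23.1 and 34.9 CPM in MYCN OFF. Its log2 fold change was -1.30 (SE 0.47). MYCN ON tumors 3 and 4, at 20.3 and 24.5 CPM, reached the MYCN OFF level or came close to it, while the other 5 were below 10 CPM. Neither adaptor was among the called members. Of the 12 settings other than those that left out a tumor, Mavs was called lower in 5 and Tmem173 in 6.

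Trim25, an E3 ligase that attaches ubiquitin chains in the RIG-I route, differed least between the groups. It was at 107 to 165 CPM in MYCN ON (median 123) and at 137, 128, 127 and 140.4 CPM in MYCN OFF. All 4 MYCN OFF tumors lay within the MYCN ON range. The log2 fold change was -0.067 (SE 0.14), and the value depended on the scaling: it was -0.38, and called lower with the other 9 members, when libraries were scaled by their totals alone, a scaling that moved the median of all genes to -0.31 and called 22% of them lower.

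Eif2ak2, the double-stranded RNA-dependent kinase, was at 34.5 to 62.3 CPM in MYCN ON (median 48.6). It was at 98.8, 44.0, 68.0 and 52.25 CPM in MYCN OFF, where tumor 2 was again the lowest. The groups overlapped, with 4 of the 7 MYCN ON tumors inside the MYCN OFF range. Its log2 fold change was -0.48 (SE 0.25), and it was -0.21 without MYCN OFF tumor 1. A non-coding gene on the opposite strand, Gm26637, shares 174 exon bases with it.

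The helicases had the smallest spread among the 6 called members. Mov10, an RNA helicase associated with Argonaute proteins and with restriction of retroelements, was at 10.96 to 17.1 CPM in MYCN ON (median 14.4) and at 37.45, 35.2, 32.7 and 41.4 CPM in MYCN OFF. Its SD of log2 CPM was 0.23 in MYCN ON and 0.14 in MYCN OFF, and the groups were well apart. The log2 fold change was -1.37 (SE 0.18). Unlike the receptors, Mov10 was highest in MYCN OFF tumor 4, and tumor 1 lay between the others.

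Znfx1, a zinc finger helicase that senses double-stranded RNA at mitochondria, was at 16.4 to 32.2 CPM in MYCN ON (median 24.3). It was at 89.3, 70.7, 69.5 and 57.9 CPM in MYCN OFF. The lowest MYCN OFF tumor, number 4, was above every MYCN ON tumor. The log2 fold change was -1.50 (SE 0.19), a 2.84-fold lower level. The lowest Znfx1 of all belonged to MYCN ON tumor 1, the tumor with the highest Mycn (171 CPM). Znfx1 shares 82 exon bases with the opposite-strand gene Zfas1.

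Levels were set against each other only after division by transcript length (CPM per kb of the longest coding transcript in GENCODE M21). In MYCN OFF the 10 members were close together. The means ran from 23.8 CPM per kb for Trim25, through 15.7 for Ddx58, 15.25 for Eif2ak2 and 12.2 for Tmem173, to 8.10 for Ifih1. Dhx58, Mavs, Mov10, Znfx1 and Zbp1 lay between 9.85 and 10.3. The ranges of all neighbours in this order overlapped. In MYCN ON the order was wider. Trim25, at 22.7 CPM per kb, stood above Eif2ak2 at 10.96 with no overlap, and Mavs (6.98), Tmem173 (4.96), Mov10 (3.95) and Znfx1 (3.51) came next. Ddx58 (2.25), Ifih1 (1.42), Dhx58 (1.27) and Zbp1 (1.01) were at the bottom, and the ranges of all neighbours after Trim25 overlapped.

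Because lung and immune RNA moved with the groups, the members were also compared within tumors on the same side of 100 CPM of Sftpc. Among tumors with Sftpc under 100 CPM there were 5 MYCN ON tumors and a single MYCN OFF tumor, number 2. This tumor lay above all 5 for 7 members, as it did for 24.6% of all genes tested. For Dhx58 it was at 16.35 CPM against 1.85 to 3.76, for Ifih1 at 25.5 against 2.59 to 11.8, for Mov10 at 35.2 against 10.96 to 15.8 and for Znfx1 at 70.7 against 16.4 to 32.2. Ddx58 was at 13.9 CPM against 3.72 to 8.12, a smaller gap, and Zbp1 at 6.64 against 0.232 to 2.27. Mavs, at 31.5 CPM against 13.0 to 26.7, was the seventh. Tmem173, Trim25 and Eif2ak2 of MYCN OFF tumor 2 were within the MYCN ON range. Among the tumors with Sftpc of 100 CPM or more, both MYCN ON tumors lay below all 3 MYCN OFF tumors for 7 members, and overlapped with them for Mavs, Trim25 and Eif2ak2. The same separation held for 21.6% of all genes tested. Tissue was not matched within this set. Sftpc was 450 and 1313 CPM in MYCN ON tumors 3 and 5. In MYCN OFF tumors 1, 3 and 4 it was 9505, 1273 and 1227 CPM. Ptprc was 24.4 and 35.0 CPM in these MYCN ON tumors, against 160, 72.6 and 31.6 in the MYCN OFF tumors.

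In these smaller sets the edgeR quasi-likelihood fit called 0 members at an adjusted p below 0.05, and 0% of all genes tested. At an unadjusted p below 0.05, 5 members were lower in the lung-poor and 6 in the lung-containing tumors, beside 6.44% and 11.1% of all genes tested. As the members were chosen on the same contrast, nothing is read from these counts either. The log2 fold change of Ddx58 was -1.12 in the lung-poor and -2.42 in the lung-containing tumors, where that of Dhx58 was -2.71 and -2.65. Mov10 stood at -1.40 and -1.24, and Znfx1 at -1.52 and -1.48. In the lung-poor set the fit assumes that the lone MYCN OFF tumor varies like the others.

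The members also differed in how far their fold changes depended on the marker scores, which are means of log2 CPM over a marker list. With the lung score as a covariate, the log2 fold change of Ddx58 went from -2.80 to -1.45, that of Ifih1 from -2.51 to -1.86 and that of Dhx58 from -3.02 to -2.43. With the immune score it was -1.09 for Ddx58, -1.34 for Ifih1, -2.22 for Dhx58 and -1.43 for Zbp1. Mov10 moved little, to -1.29 with the lung score and -1.28 with the immune score. Znfx1 likewise stood at -1.45 and -1.43. Eif2ak2 went to -0.077 and 0.024, and Tmem173 to -0.95 and -0.62. With the immune score, 4 members (Dhx58, Ifih1, Mov10 and Znfx1) were called lower, where 3.60% of all genes were. With the lung score 6 were, where 3.70% of all genes were. As the members were chosen on the same contrast, nothing is read from these counts. Both lists hold genes that are themselves lower in MYCN ON, so a covariate built from either shares variation with the group.

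**Figure D2:**
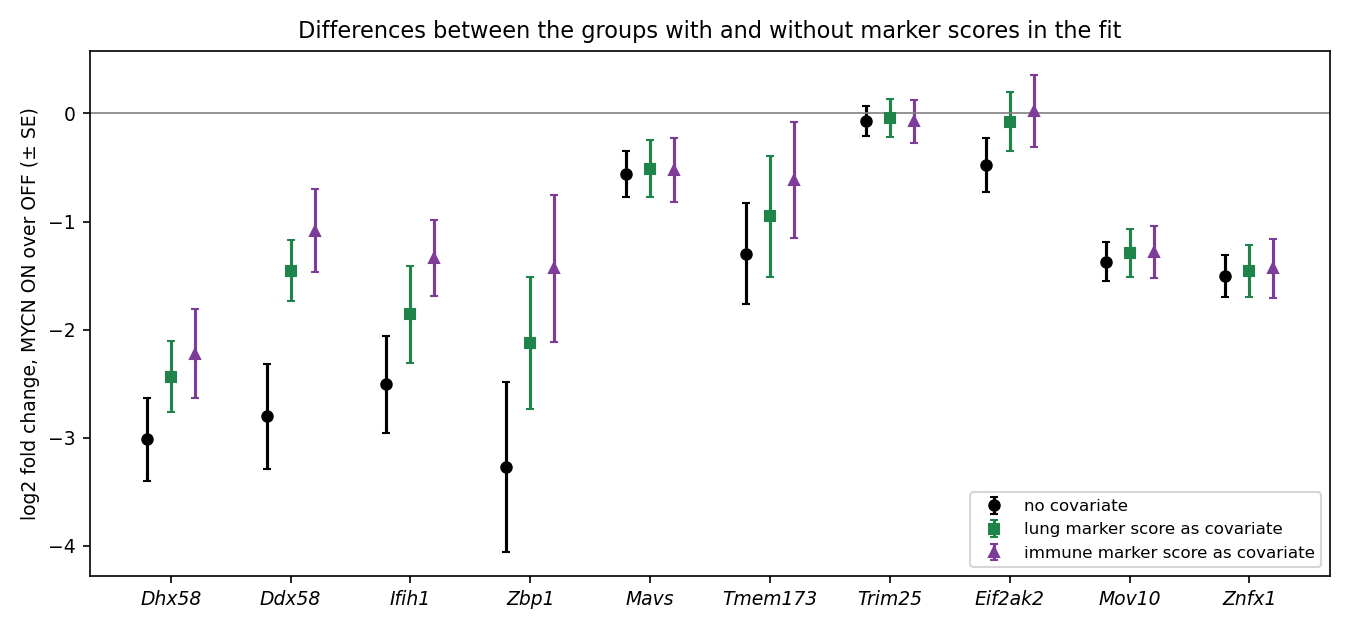
Log2 fold change (MYCN ON over MYCN OFF, error bars ± SE) of each member from the edgeR fit over 11 tumors without a covariate (circles), with the lung marker score (squares) and with the immune marker score (triangles). Mov10 and Znfx1 hold their values in the 3 fits, while Ddx58 goes from -2.80 to -1.09 with the immune score.

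Within the 7 MYCN ON tumors, which the choice of members did not compare, each member's log2 CPM was set against Mycn and against the immune score, 20 relations in all. After Benjamini-Hochberg adjustment 0 of the 20 passed 0.05 by exact permutation, and 3 did so unadjusted by Pearson's r. Ifih1 had the closest relation, with the immune score. Its Pearson's r was 0.93 (exact permutation p = 0.00456, adjusted p = 0.0913), Spearman's rho was 0.86 (exact permutation p = 0.0238, adjusted p = 0.32), and r was 0.94 without the 2 tumors farthest from the median score. For Ddx58, r with the immune score was 0.78 (exact permutation p = 0.0329, adjusted p = 0.267) and rho was 0.54 (p = 0.236, adjusted p = 0.921). It rested on 2 tumors, since r was 0.28 without them. Tmem173 had an r of 0.76 with the immune score (exact permutation p = 0.0534, adjusted p = 0.267) and a rho of 0.75 (p = 0.0663, adjusted p = 0.331), and r was 0.89 without the farthest 2. Zbp1 had an r of 0.69 (exact permutation p = 0.0821, adjusted p = 0.329) and a rho of 0.79 (p = 0.048, adjusted p = 0.32), but r was 0.27 without the farthest 2. Mov10 (r 0.47, and 0.17 without the farthest 2), Dhx58 (0.39 and -0.60) and Eif2ak2 (0.022 and -0.50) had lower coefficients.

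Mycn, whose reads may come from the endogenous gene, the transgene or both, had 5 positive and 5 negative coefficients. The strongest was that of Znfx1, with r of -0.75 (exact permutation p = 0.0462, adjusted p = 0.267) and rho of -0.79 (exact permutation p = 0.048, adjusted p = 0.32), and r was -0.88 without the 2 farthest tumors. Zbp1 and Dhx58 had the same sign, both at r of -0.54 (exact permutation p = 0.212 and 0.21, adjusted p = 0.605 for each). Without the 2 farthest tumors r was 0.051 for Zbp1 and -0.48 for Dhx58. Mov10, although lower in every MYCN ON tumor, had r of 0.053 with Mycn inside that group. The tumors with and without lung RNA numbered 2 and 5 here, and no relation was computed within sets of fewer than 6 tumors.

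**Figure D3:**
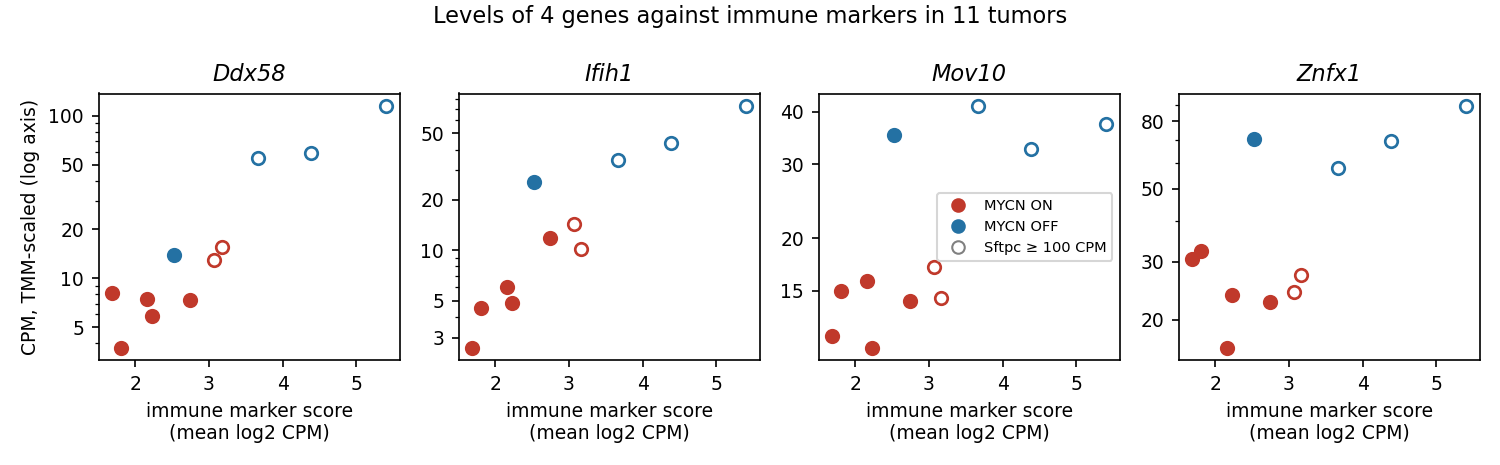
Levels of Ddx58, Ifih1, Mov10 and Znfx1 (CPM, log axis) against the immune marker score (mean log2 CPM) in 7 MYCN ON (red) and 4 MYCN OFF (blue) tumors, open where Sftpc was 100 CPM or more. Ddx58, Ifih1 and Znfx1 are highest in MYCN OFF tumor 1, which has the highest score. Mov10 and Znfx1 of MYCN OFF tumor 2, at an immune score of 2.53, lie with the other MYCN OFF tumors. Ifih1 of that tumor, at 25.5 CPM, also lies above every MYCN ON tumor (14.5 CPM at most).

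The profile of Dhx58 over the 11 tumors served to rank the other genes by likeness (Pearson's r of log2 CPM, a description across tumors that includes the group difference). The 5 closest were Oasl1, an oligoadenylate synthetase-like protein (0.98), Apof, an apolipoprotein (0.98), Irgm2, an immunity-related GTPase (0.98), Tnfrsf1a, a TNF receptor (0.97), and Tgtp2, another interferon-inducible GTPase (0.97). Of the members, Znfx1 (0.93), Ddx58 (0.92), Zbp1 (0.91), Mov10 (0.89) and Ifih1 (0.87) had the highest values and Trim25 the lowest (0.25). After the group means were subtracted the order changed. The members then ran from Eif2ak2 (0.76), Ddx58 (0.75) and Zbp1 (0.67) through Znfx1 (0.43) and Ifih1 (0.32) to Mov10 (-0.14) and Mavs (-0.22). The closest genes by that measure were I830012O16Rik, which RefSeq names Ifit3b (0.94), F630028O10Rik (0.93), the MHC class I gene H2-Q8 (0.93), Fam92b (0.93) and the transcription factor Lyl1 (0.93). H2-Q8 and Ifit3b belong to families of near-identical copies, so their counts are uncertain.

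The rest of the pathway was followed through 9 lists, chosen with earlier results of these data known. Their counts and adjusted p-values are therefore given as a description. The lists held 169 other genes, of which 155 passed the filter. In MYCN ON 43 of these fell (27.7%, beside 13.4% of all genes tested) and 32 rose (20.6%, beside 16% of all genes tested). The other 80 did not pass the test, and the median log2 fold change was -0.14. With libraries scaled by their totals the split was 58 lower and 20 higher (22% and 8.64% of all genes). It was 16 and 19 with the lung score (3.70% and 8.05% of all genes), and 9 and 14 with the immune score (3.60% and 6.13%). At an adjusted p below 0.01, 18 fell and 21 rose (3.39% and 7.79%), and without MYCN OFF tumor 1, 23 fell (6.66%). Of the 35 genes that the naming rule took from the lists, 25 kept their call with the lung score and 21 with the immune score. Among those that fell were interferon-induced sensors and signal proteins, and among those that rose were ribosome-assembly helicases and partners of eIF2alpha.

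**Figure D4:**
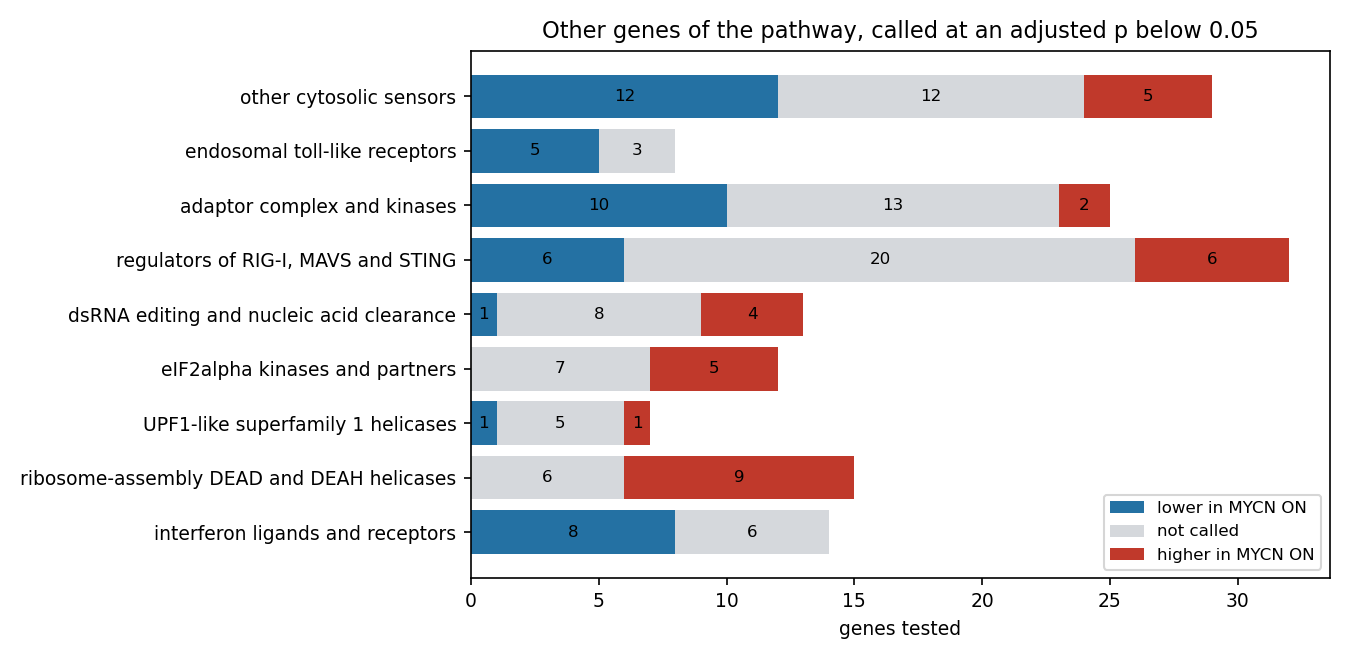
Number of genes in each of the 9 pathway lists that were lower (blue), higher (red) or not called (grey) in MYCN ON by the edgeR quasi-likelihood test at an adjusted p below 0.05. The list of ribosome-assembly helicases holds 9 genes that rose and none that fell. The list of interferon ligands and receptors holds 8 that fell and none that rose. Over all genes tested, 13.4% fell and 16% rose.

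Of 29 other cytosolic sensors, 12 fell and 5 rose (median log2 fold change -0.88). These shares were 41.4% and 17.2%, beside 13.4% and 16% of all genes tested. Genes of the oligoadenylate synthetase family led those that fell. Oas1a was at 1.25 ± 0.99 CPM (SD, n = 7) in MYCN ON and 18.7 ± 14.5 (SD, n = 4) in MYCN OFF, with a log2 fold change of -3.89 (edgeR adjusted p = 0.0017). The values of Oas1b and Oasl1 were -3.18 (edgeR adjusted p = 0.0013) and -3.40 (adjusted p = 0.0016). The Oas1 copies are nearly identical in sequence, which leaves their split uncertain. The sensors that rose were helicases with general roles in RNA metabolism. Dhx9 was at 570.3 ± 96.9 CPM (SD, n = 7) against 228 ± 67.7 (SD, n = 4), a log2 fold change of 1.32 (edgeR adjusted p = 0.00171). Ddx1 rose by 1.001 (edgeR adjusted p = 0.00157) and Dhx36, which unwinds G-quadruplexes, by 0.94 (adjusted p = 0.00108). In all 3 every MYCN ON tumor was above every MYCN OFF tumor, which held for 11.4% of all genes tested. The order was the opposite of that of the receptor helicases Dhx58 and Ifih1. As the 3 were named for a small p in this contrast, nothing is read from their separation. The DNA sensor cGAS, listed as E330016A19Rik in the files, did not pass the test (log2 fold change -0.88, edgeR adjusted p = 0.469).

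Among 8 genes of the endosomal toll-like receptor route, 5 fell and 0 rose (median -1.29). These shares were 62.5% and 0%, beside 13.4% and 16% of all genes tested. Unc93b1, the chaperone of these receptors, fell by 1.57 on the log2 scale (edgeR adjusted p = 0.00415), and Myd88, their adaptor, fell by 1.85 (adjusted p = 0.00614). Tlr3, the endosomal receptor of double-stranded RNA, fell by 2.14 (edgeR adjusted p = 0.0227). None of these 3 kept its call with either marker score in the fit. With the lung and the immune score the log2 fold change was -0.81 and -0.52 for Unc93b1, -0.92 and -0.82 for Myd88, and -0.76 and -0.012 for Tlr3. Tlr3 was also no longer called without MYCN OFF tumor 1 (log2 fold change -1.35, edgeR adjusted p = 0.128). Of the immune markers 7 of 14 fell, beside 13.4% of all genes tested, and their part in these differences was not tested.

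The kinases and adaptors that pass on the Mavs and Tmem173 signal numbered 25, of which 10 fell and 2 rose (median -0.42). These shares were 40% and 8%, beside 13.4% and 16% of all genes tested. Irf7, the interferon-inducible factor that amplifies interferon transcription, had the largest difference of the named genes. It was at 4.81 ± 5.70 CPM (SD, n = 7) in MYCN ON and 87.25 ± 71.9 (SD, n = 4) in MYCN OFF, a log2 fold change of -4.17 (edgeR adjusted p = 0.00277). Irf3, which is not itself induced by interferon and is phosphorylated by Tbk1, fell by 0.94 (edgeR adjusted p = 0.00442), with no overlap. Ikbke, a kinase related to Tbk1, fell by 1.77 (edgeR adjusted p = 0.0152) and lost its call when MYCN OFF tumor 1 was left out, with the lung score (log2 fold change -0.84) and with the immune score (-0.44). Irf7 stood at -3.16 with the lung score and -2.41 with the immune score, both called, and Irf3 at -0.94 and -0.85, the latter not called. The part of the immune markers, of which 7 of 14 fell beside 13.4% of all genes tested, was not tested. Tomm70a, the mitochondrial import receptor that binds Mavs, rose by 1.56 (edgeR adjusted p = 9.05e-04), and the ubiquitin ligase Traf6 rose by 1.04 (adjusted p = 0.00143).

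The regulators of RIG-I, Mavs and STING had 6 of 32 falling and 6 rising, 18.75% each, beside 13.4% and 16% of all genes tested (median -0.0089). Trim21, a cytosolic antibody receptor and ubiquitin ligase, fell by 2.15 (edgeR adjusted p = 0.00413). The ubiquitin-like modifier Isg15 fell by 3.58 (edgeR adjusted p = 0.00825), although its groups overlapped, and Zdhhc1, a partner of STING, fell by 1.24 (adjusted p = 0.01). The 14-3-3 protein Ywhae, which carries RIG-I to membranes, rose by 0.93 (edgeR adjusted p = 0.00264). Ppp1cc, a phosphatase that acts on RIG-I and MDA5, rose by 0.73 (edgeR adjusted p = 0.00881), and Pcbp1, which promotes Mavs turnover, by 0.65 (adjusted p = 0.0091). Of these 6, only Ywhae kept its call with both marker scores, and Trim21 kept it with the lung score (-1.72) but not with the immune score (-1.58). Isg15 stood at -2.18 with the lung and -1.23 with the immune score, and Zdhhc1 at -1.07 and -1.23.

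None of the genes around Eif2ak2 fell. Of 12 other eIF2alpha kinases and partners, 0 fell and 5 rose (median 0.48), while Eif2ak2 itself was at -0.48. The shares of the 12 were 0% and 41.7%, beside 13.4% and 16% of all genes tested. Eif2s1, the eIF2alpha subunit that these kinases phosphorylate, was at 167 ± 28.3 CPM (SD, n = 7) in MYCN ON and 66.9 ± 12.9 (SD, n = 4) in MYCN OFF, a log2 fold change of 1.32 (edgeR adjusted p = 9.95e-04). The double-stranded RNA-binding partner Ilf2 rose by 1.08 (edgeR adjusted p = 0.00414), and Ppp1r15b, which targets the phosphatase to eIF2alpha, by 0.85 (adjusted p = 0.0062). With the immune score in the fit Ilf2 (0.89) and Ppp1r15b (0.87) were no longer called.

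Genes that edit or clear nucleic acid gave 1 that fell and 4 that rose among 13 (median 0.42). These shares were 7.69% and 30.8%, beside 13.4% and 16% of all genes tested. Rnaseh2b and Rnaseh2a, subunits of the ribonuclease that removes RNA from RNA-DNA hybrids, rose by 1.99 (edgeR adjusted p = 9.16e-04) and 1.28 (adjusted p = 0.00187). Pnpt1, the mitochondrial polynucleotide phosphorylase, rose by 1.27 (edgeR adjusted p = 0.0013). Trex1, a cytosolic DNA exonuclease, fell by 0.91 (edgeR adjusted p = 0.0474), a call kept in 2 of the 11 fits that left out a tumor and with neither marker score.

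The helicases related to Mov10 and Znfx1 by family were called at about the share of all genes tested. Of 7 other UPF1-like superfamily 1 helicases, 1 fell and 1 rose (median 0.27). Each was 14.3%, beside 13.4% and 16% of all genes tested. The one that fell, BC006779, entered the list as an older symbol of Helz2, a match that the gene table used here did not hold. It was at 19.1 ± 5.95 CPM (SD, n = 7) in MYCN ON and 90.6 ± 11.4 (SD, n = 4) in MYCN OFF, with a log2 fold change of -2.24 (edgeR adjusted p = 3.78e-04) and no overlap. Aqr, a splicing helicase, rose by 0.75 (edgeR adjusted p = 0.0255), a call kept in 6 of 11 fits that left out a tumor and with neither marker score (0.46 with the lung and 0.48 with the immune score). Among 15 DEAD and DEAH helicases of ribosome assembly, 9 rose and 0 fell (median 0.73). These shares were 60% and 0%, beside 16% and 13.4% of all genes tested. Ddx21 rose by 1.83 (edgeR adjusted p = 9.79e-04), Dhx33 by 1.32 (adjusted p = 0.0013) and Ddx18 by 1.18 (adjusted p = 0.0017). Ddx58, of the same DEAD-box name, lay at -2.80.

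Interferons themselves were hardly seen. Ifnb1, Ifna1 and Ifna4 had 0 reads in all 11 tumors, where 3 reads, the limit that a count of 0 allows, come to 0.202 to 0.348 CPM per tumor. Ifng had 1 read in MYCN ON and 6 in MYCN OFF. Of the 14 genes of the interferon list that passed the filter, 8 fell and 0 rose (median -1.10). These shares were 57.1% and 0%, beside 13.4% and 16% of all genes tested. Irf1, an interferon-induced transcription factor, was at 19.5 ± 6.94 CPM (SD, n = 7) in MYCN ON and 75.95 ± 16.2 (SD, n = 4) in MYCN OFF, a log2 fold change of -1.96 (edgeR adjusted p = 8.47e-04). Stat2, a factor that carries the interferon signal to the ISRE, fell by 1.76 (edgeR adjusted p = 0.00147), with no overlap between the groups.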

How the data were processed

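Poly(A) RNA of 11 tumors was sequenced after TRIzol extraction with a NEBNext Ultra kit, per the labels' protocols. The submitters' processing notes name bcl2fastq 1.8.4, TopHat2 2.0.8b, HTSeq 0.6.1 and build mm9. The annotation and strand setting are not given in the sources used here. The authors deposited raw read counts per gene symbol. The 5 summary rows of each file were left out. Reads without an annotated gene made up 14.8% to 21.5% of a tumor's records. Alignments that were not unique made up 13.8% to 20.9% in MYCN ON and 9.15% to 11.9% in MYCN OFF, with no overlap. They are not in the gene counts, and the effect of this difference was not tested. Groups and replicate numbers came from the titles. The members and gene lists were chosen with earlier results of these data known.

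Counts were fitted in R 4.3.3 with edgeR 4.0.16 (filterByExpr with minimum count 10 and minimum total 15, TMM factors, robust quasi-likelihood test, no covariate, adjusted p below 0.05 over 15237 genes), after the script was tested on simulated counts. Standard errors were derived from the log2 fold change and the F statistic. Log2 CPM used a prior count of 2. Correlation p-values are two-sided and exact over all pairings. All members were named; other lists gave up to 3 genes per direction with the smallest p, of which 1 is not reported here. cGAS, and the genes set beside a value for a tumor, were added after their values were seen. Transcript lengths and exon overlaps came from GENCODE M21. All pairs of same-group tumors differed beyond sampling noise (smallest chi-square per gene 52.1). Alternatives were library totals, upper quartile and RLE factors, DESeq2 1.42.0, limma 3.58.1 voom, no filter or a minimum count of 50, an adjusted p below 0.01, the replicate number as a block, lung or immune score covariates, tumors split at 100 CPM of Sftpc, and each tumor left out.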

Additional observations from a re-analysis of the deposited data

Results flagged for a closer look

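A tumor was looked at again where its gap to the nearest tumor of its group, divided by the range of the group, passed Dixon's 95% critical value. This held in 7 of 90 checks over 45 genes, and 4 of the 7 were in MYCN ON tumor 5. The critical value assumes normal values, and the checks used CPM without logs in shared tumors. No chance rate was therefore set beside the count. Zbp1, the only member, was at 7.42 CPM in that tumor, and the next MYCN ON tumor was at 2.27. In the same tumor Irf7 was at 17.4 CPM (next 5.17), Isg15 at 8.90 (next 3.53) and Oas1a at 3.36 (next 1.41). The other flags were of single genes. BC006779 was lowest in MYCN OFF tumor 4 at 73.55 CPM (next 94.5), Dhx36 was highest in MYCN OFF tumor 2 at 95.8 CPM (next 75.0), and Ywhae was highest in MYCN ON tumor 1 at 1627 CPM (next 1259).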

How the results depend on the processing

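The 6 members called lower (13.4% of all genes) became 10 with library totals (22%), and 0 in the lung-containing tumors alone (0%). Leaving out 1 tumor gave 6 to 8, where 6.66% to 15.6% of all genes were called lower. With RLE or upper quartile factors, with DESeq2 and at a minimum count of 50, 8 were called, Mavs and Tmem173 being added. In these settings, in that order, 15.2%, 19%, 19.3% and 13.6% of all genes were called lower. As the members were chosen on the same contrast, nothing is read from these counts. The 43 pathway genes that fell became 23 with the replicate block (7.56% of all genes). They became 16 with the lung score (3.70%) and 9 with the immune score (3.60%). In the lung-containing tumors alone 0 fell (0%), and 18 did at an adjusted p below 0.01 (3.39%). Leaving out 1 tumor gave 23 to 44, with 23 without MYCN OFF tumor 1, where 6.66% to 15.6% of all genes fell. The 32 that rose became 20 with library totals (8.64% of all genes). With the lung score they became 19 (8.05%) and with the immune score 14 (6.13%). In the lung-containing tumors alone 0 rose (0%), and 21 did at an adjusted p below 0.01 (7.79%). Leaving out 1 tumor gave 24 to 35, where 11% to 19.1% of all genes rose. At an unadjusted p below 0.05, 34 fell in the lung-containing tumors, beside 11.1% of all genes. In the same tumors 28 rose, for which no share over all genes was computed. The sets split by Sftpc hold fewer tumors. For the other settings the cause was not tested. Deviations of same-numbered tumors correlated at -0.16, 0.46, -0.08 and 0.27. Without different-numbered pairs beside them, these values cannot decide whether the replicate numbers pair the tumors. The block ended no member's call, but ended those of Ikbke, Tlr3 and Trex1. Eif2ak2 reversed to 0.024 with the immune score and to 0.011 in the lung-poor tumors. With library totals, 5 weak correlations in MYCN ON changed sign: Trim25 with Mycn (-5.27e-06) and with the immune score (0.19), Mov10 with Mycn (-0.12), Znfx1 with the immune score (0.052) and Eif2ak2 with Mycn (-0.018). Of 230 refits of single members, 198 kept direction and call, 14 lost the call, 16 gained it and 2 reversed. Of 805 refits of named pathway genes, 689 kept both, 116 lost the call and 0 reversed. Zbp1 in MYCN ON, at 2 to 95 reads, was limited by depth.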
